A study of Rattus norvegicus with 8 samples.

Results

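Expression of 10 genes whose products move calcium across membranes was followed in the right stellate ganglia of Wistar and spontaneously hypertensive rats (SHR). They were the endoplasmic reticulum pump Atp2a3 (NM_012914) and the plasma membrane pumps Atp2b1 (NM_053311), Atp2b2 (NM_012508) and Atp2b3 (NM_133288). With them came the sodium/calcium exchangers Slc8a1 (NM_019268), Slc8a2 (NM_078619) and Slc8a3 (NM_078620) and the inositol trisphosphate (IP3) receptors Itpr1 (NM_001007235), Itpr2 (NM_031046) and Itpr3 (NM_013138). The genes were chosen by name, each through the RefSeq transcript record in brackets, which gave 10 of the 18314 records in the files. All 10 records were present in every rat's file.

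The ganglia came from 4 male Wistar rats, a normotensive control strain, and 4 male SHR, an inbred strain with genetic hypertension, all aged 16 weeks. The sources name no treatment for either strain. Each rat gave 1 library, so the spread between libraries is the spread between rats. SHR and Wistar differ at many loci and in blood pressure at this age, and these cannot be told apart in this design.

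RNA of the whole ganglion was sequenced, and the estimated read counts summed to between 25820299 and 35509074 per rat. The totals overlapped between the strains (exact two-sided permutation test of the means, p = 0.286, where the smallest p possible is 0.0286). Of 16 markers of sympathetic neurons 15 had a record, and none of these was at 0 in every rat. Their summed TPM (an abundance corrected for transcript length and scaled to 1000000 per rat) lay between 40294 and 47093. Markers of glia, vessels, connective tissue, blood and fat were also present at lower levels. In such bulk RNA, fewer cells of a type and less RNA per cell cannot be told apart.

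Calcium that enters a sympathetic neuron during firing drives transmitter release and must then be cleared. Plasma membrane calcium ATPases pump it out with high affinity, sodium/calcium exchangers carry it out in exchange for sodium ions, and sarco/endoplasmic reticulum calcium ATPases (SERCA) return it to the internal store. IP3 receptors are channels that release calcium from that store when phospholipase C is activated by receptors at the cell surface.

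The 250 bases before the start site of 3 of the genes are shown because Atp2b1, Atp2b2 and Slc8a3 each had their lowest level in the same rat and their highest in the same other rat. This was so for 7.74% of all tested records too. The sequences are RefSeq's for the rat assembly GRCr8, on the strand of the gene, and capitals mark CG dinucleotides. They lie at chr7:35622211-35622460 (plus strand) for Atp2b1, chr4:148763654-148763903 (minus strand) for Atp2b2 and chr6:106738506-106738755 (minus strand) for Slc8a3.
Atp2b1: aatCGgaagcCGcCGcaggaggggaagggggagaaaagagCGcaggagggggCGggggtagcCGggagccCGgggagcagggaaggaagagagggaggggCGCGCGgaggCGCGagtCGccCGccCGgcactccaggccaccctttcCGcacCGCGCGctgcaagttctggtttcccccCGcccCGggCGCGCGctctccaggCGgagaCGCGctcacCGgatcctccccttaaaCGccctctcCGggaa
Atp2b2: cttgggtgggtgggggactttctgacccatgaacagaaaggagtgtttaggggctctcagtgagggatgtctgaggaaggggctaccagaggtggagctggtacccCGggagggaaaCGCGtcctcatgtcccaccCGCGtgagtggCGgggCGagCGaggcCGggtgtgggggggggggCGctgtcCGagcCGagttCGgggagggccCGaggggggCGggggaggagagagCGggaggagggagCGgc
Slc8a3: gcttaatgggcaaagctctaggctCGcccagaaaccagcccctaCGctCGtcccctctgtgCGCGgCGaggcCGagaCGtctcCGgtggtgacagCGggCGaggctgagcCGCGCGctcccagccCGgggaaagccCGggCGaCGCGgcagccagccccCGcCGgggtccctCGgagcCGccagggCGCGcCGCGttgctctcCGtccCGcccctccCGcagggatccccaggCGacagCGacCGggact

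All 3 windows held more CG dinucleotides than the median window. Atp2b1 had 30, Atp2b2 had 17 (the 63.6th percentile) and Slc8a3 had 33, against a median of 12 in the windows of 13025 genes of the files. Of the 9 member genes with an entry, 6 were above this median. Slc8a1, Itpr1 and Slc8a2 were below it, with 5, 9 and 1. The letters GGGCGG, a GC box, were found on either strand in each of the 3, in 6 of the 9 member genes with an entry, and in 46.3% of all windows. The letters TGACGTCA, a cyclic AMP response element that reads the same on both strands, were in 0 of the 9 member windows and in 2.39% of all windows. These matches describe the letters of the windows and nothing was measured at them in these ganglia. Atp2b3 had no entry.

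None of the 10 genes passed the test between the strains. Of the 10 records, 8 passed edgeR's filter on low counts and 0 passed the adjusted p threshold of 0.05 in edgeR's quasi-likelihood test, where 2.85% of the 13659 records tested did. No member had an unadjusted p under 0.05, against 16.8% of all tested records, and no member had normalised counts that failed to overlap between the strains, against 10.6%. DESeq2 gave an adjusted p to 9 members with and without a correction for transcript length. It called 0 members either way, against 6.26% and 5.23% of all records, and 0 members had an unadjusted p under 0.05. Regardless of sign, the 8 members changed by a median of 0.11 on the log2 scale and all tested records by 0.21. The log2 fold change (SHR over Wistar) was above 0 for 5 members and below 0 for 3, with a median of 0.01 for the members and 0.01 for all tested records. The records of Slc8a1 and Itpr1 did not pass the filter, and for these genes the sum over all records of the gene is given instead.

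**Figure D1:**
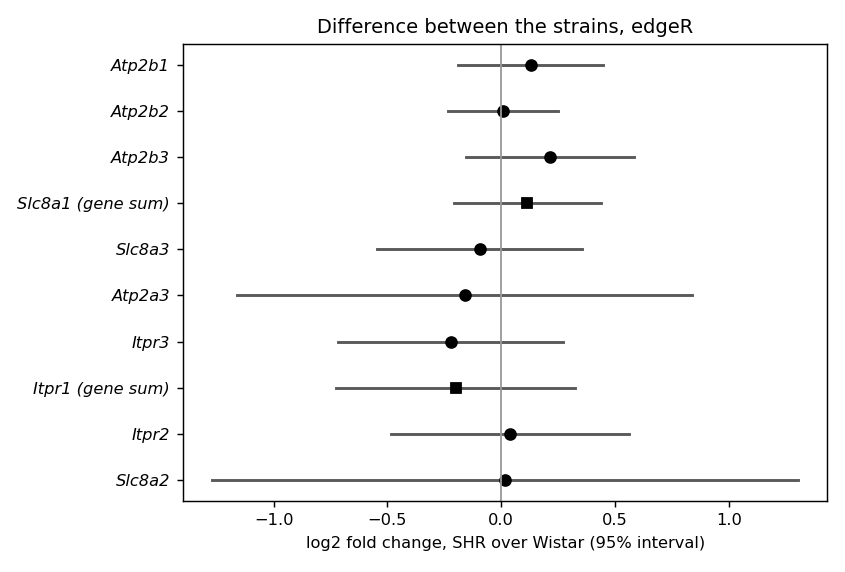
Log2 fold change of SHR over Wistar for each gene (edgeR quasi-likelihood fit, 4 rats per strain), with bars for the 95% interval. Circles are single records and squares are sums over the records of a gene. Every interval includes 0, and the bars are narrowest for Atp2b2 and widest for Slc8a2.

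How large a difference these rats could have hidden depended on the gene. The 95% interval of the fold change stayed within 1.5-fold in either direction for 5 of the 10 genes, namely Atp2b1, Atp2b2, Slc8a1, Slc8a3 and Itpr2. It stayed within 2-fold for 8, and it was wider for Atp2a3 and Slc8a2.

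The 10 genes spanned a wide range of levels. The highest was Atp2b1 with a mean of 15.1 TPM over the 8 rats (SD 2.27), followed by Atp2b2 with 13.7 TPM (SD 1.89) and Atp2b3 with 9.04 TPM (SD 2.05). Slc8a1, summed over its records, had 4.23 TPM (SD 0.642) and Slc8a3 had 2.23 TPM (SD 0.459). Atp2a3 followed with 1.29 TPM (SD 0.618) and Itpr3 with 1.14 TPM (SD 0.266). The lowest were Itpr1, summed over its records, with 0.567 TPM (SD 0.147), Itpr2 with 0.521 TPM (SD 0.115) and Slc8a2 with 0.208 TPM (SD 0.103).

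Among the 13746 genes with counts in all 8 rats, Atp2b1 stood at the 66.0th percentile and Slc8a2 at the 4.70th. Ranges over the rats separated Atp2b3 from Slc8a1 and Slc8a1 from Slc8a3, and all other neighbours in the order overlapped. Atp2b1 was above Atp2b2 in 6 of the 8 rats, Atp2a3 was above Itpr3 in 5 and Itpr1 was above Itpr2 in 5, so the order within these pairs was not fixed.

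**Figure D2:**
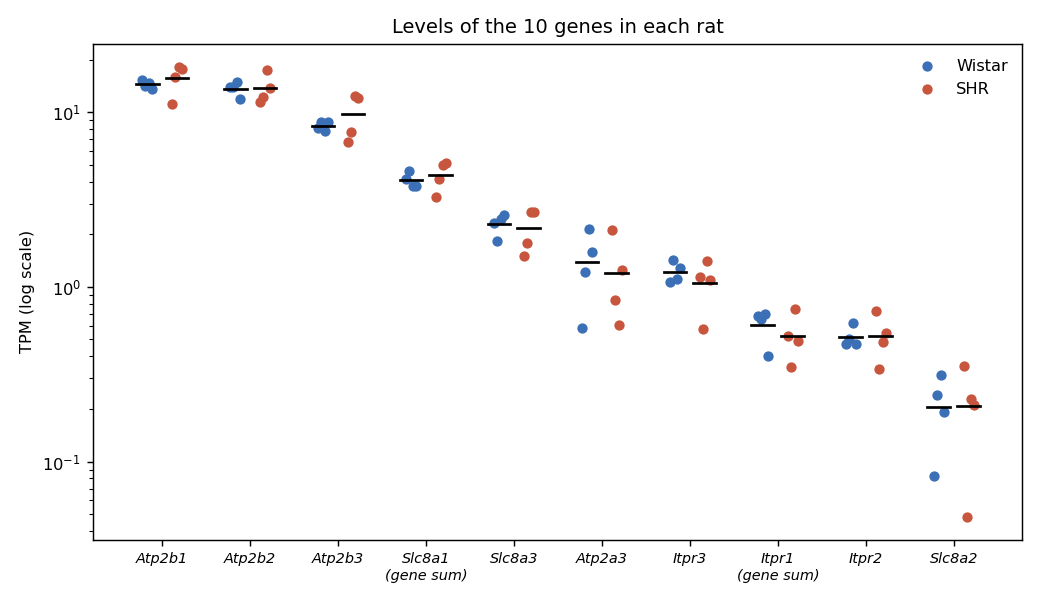
Level of each gene in each rat in TPM on a log scale, Wistar in blue and SHR in red, with a bar at the mean of each strain (n = 4). The genes fall from Atp2b1 with a mean of 15.1 TPM over all rats to Slc8a2 with 0.208 TPM, and the strains overlap for every gene.

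The plasma membrane pumps were the most abundant family, and none of the 3 passed the test. Atp2b1, the pump found in nearly all cell types, had 15.4, 14.2, 14.8 and 13.6 TPM in Wistar replicates 1 to 4 and 11.2, 16.0, 18.3 and 17.6 TPM in SHR replicates 1 to 4. Of the SHR, 3 were thus above every Wistar rat and the other one, SHR replicate 1, was below every Wistar rat. In SHR relative to Wistar its log2 fold change was 0.13 (SE 0.14, 95% interval -0.19 to 0.45; edgeR, adjusted p = 0.688). Without SHR replicate 1 it was 0.26 (edgeR, adjusted p = 0.182), and over the 21 fits tried the adjusted p ran from 0.0952 to 0.876.

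Atp2b2, a fast pump known from neurons and from the hair cells of the inner ear, had 13.9, 14.0, 14.9 and 11.9 TPM in the Wistar rats. In the SHR it had 11.5, 12.2, 17.4 and 13.8 TPM. SHR replicate 1 was again the lowest of all rats and SHR replicate 3 the highest, while the other SHR lay inside the Wistar range. Its log2 fold change was 0.01 (SE 0.11, 95% interval -0.23 to 0.25; edgeR, adjusted p = 0.983), the narrowest interval among the 10 genes.

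Atp2b3, a pump largely restricted to neurons, had 8.11, 8.82, 7.78 and 8.77 TPM in Wistar. In SHR it had 6.79, 7.72, 12.4 and 12.0 TPM. SHR replicates 3 and 4 were above every Wistar rat and SHR replicates 1 and 2 were below every Wistar rat, so the strain means differed by less than the spread among the SHR. For SHR over Wistar the log2 fold change was 0.21 (SE 0.17, 95% interval -0.16 to 0.59; edgeR, adjusted p = 0.54), the smallest adjusted p of the 8 members tested. The count of this record was not a whole number in any of the 8 rats, which shows that Salmon divided some of its reads with another record. No single record that completed the count to a whole number was found.

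The shares of the 3 pumps in their summed level overlapped between the strains. Atp2b4, a further plasma membrane pump that was above each of them in every rat, is described further on and is not counted in these shares. Of the summed TPM of the 3 pumps, Atp2b1 held 39.7% ± 1.16 in Wistar and 40.3% ± 3.08 in SHR, Atp2b2 held 37.4% ± 2.03 and 35.3% ± 3.09, and Atp2b3 held 23.0% ± 2.14 and 24.5% ± 2.74 (mean and SD of 4 rats). The summed level was 36.5 ± 1.49 TPM in Wistar and 39.2 ± 8.19 TPM in SHR. It ran only from 34.3 to 37.4 TPM in Wistar but from 29.5 to 48 TPM in SHR, with SHR replicate 1 lowest and SHR replicate 3 highest.

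**Figure D3:**
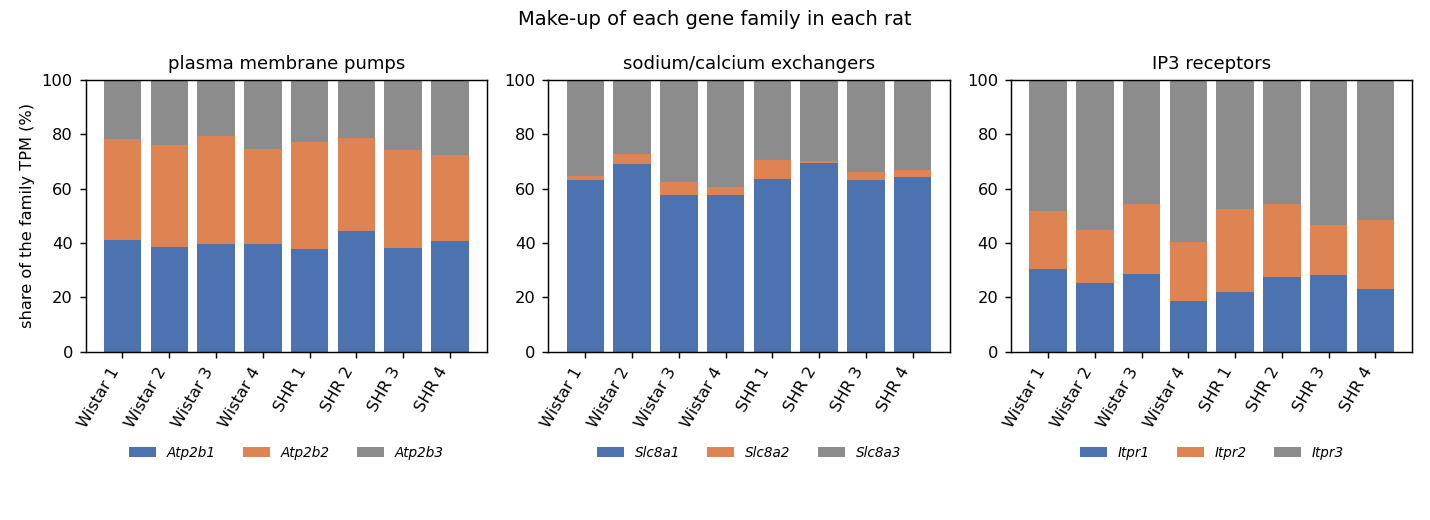
Share of each gene in the summed TPM of its family in each rat, as stacked bars in percent, for the 3 plasma membrane pumps, the 3 exchangers and the 3 IP3 receptors. The pump Atp2b4 is not included. Atp2b1 and Atp2b2 are close to each other in the pumps, Slc8a1 holds most of the exchanger level, and Itpr3 is the largest part of the IP3 receptors in both strains.

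Atp2a3, also called SERCA3, is a SERCA pump known from platelets, lymphocytes and endothelium, among other cells. It had 0.583, 1.22, 2.15 and 1.59 TPM in Wistar and 2.11, 0.842, 0.602 and 1.25 TPM in SHR. The level varied 3.68-fold over the 8 rats, with low and high rats in both strains. The log2 fold change was -0.16 (SE 0.45, 95% interval -1.16 to 0.84; edgeR, adjusted p = 0.89). Single rats moved it in both directions, to 0.12 without Wistar replicate 3, -0.62 without SHR replicate 1 and -0.87 with both rats numbered 1 left out (edgeR, adjusted p = 0.948, 0.451 and 0.162).

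Marker levels of other cell types are given beside Atp2a3 because of where it is known to be expressed. The summed TPM of 7 endothelial markers was 33.7, 48, 59.3 and 42.9 in Wistar and 51.1, 32.8, 38.7 and 29.5 in SHR. Wistar replicate 3 was the highest for this sum and for Atp2a3, but only 3 of the 7 markers were highest in that rat. Another 3 (Tek, Flt1 and Vwf) were highest in SHR replicate 3, where Atp2a3 was second lowest. Lymphocyte markers summed to between 6.49 and 11.7 TPM and the 4 platelet and megakaryocyte markers with a record to between 19.1 and 141.1 TPM. Wistar replicate 1, the lowest for Atp2a3, had 92.8 TPM of the platelet markers, of which Pf4 alone had 90.9 TPM. Pf4 made up most of this sum in every rat, and Gp1bb was at 0 in every rat, so the sum describes mainly a single gene. The part of these cells in the level of Atp2a3 was not tested.

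The exchangers were at lower levels than the pumps, and none of the 3 passed the test either. Slc8a1, also called NCX1, is the exchanger of heart muscle and of many other tissues. Its member record, NM_019268, was listed at 0 in 6 rats and at 2.9e-06 and 2.9e-08 counts in the others, but 7 of the 8 further records of the gene held counts (the 9 records measured 6131 to 6239 bases). Summed over the 9, Slc8a1 had 4.14, 4.61, 3.78 and 3.80 TPM in Wistar and 3.25, 4.13, 4.96 and 5.15 TPM in SHR. SHR replicates 3 and 4 were above every Wistar rat and SHR replicate 1 was below every Wistar rat. The log2 fold change of the sum was 0.11 (SE 0.15, 95% interval -0.21 to 0.44; edgeR on gene sums, adjusted p = 0.721), where 2.95% of 13106 genes passed the threshold.

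Slc8a2, or NCX2, known from brain, was close to the limit of detection. Its estimated counts were 7, 17, 26 and 16 in Wistar and 28, 3, 17 and 17 in SHR, which is 0.0824, 0.239, 0.312 and 0.191 TPM in Wistar and 0.35, 0.048, 0.228 and 0.211 TPM in SHR. Both the highest and the lowest rat were SHR. Its log2 fold change came to 0.02 (SE 0.58, 95% interval -1.27 to 1.31; edgeR, adjusted p = 0.992), an interval that takes in a 2-fold difference in either direction.

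Slc8a3, or NCX3, known from brain and skeletal muscle, had 2.32, 1.83, 2.46 and 2.59 TPM in Wistar and 1.51, 1.78, 2.68 and 2.68 TPM in SHR. SHR replicates 1 and 2 were below every Wistar rat and SHR replicates 3 and 4 were above every Wistar rat. Its log2 fold change came to -0.09 (SE 0.20, 95% interval -0.55 to 0.36; edgeR, adjusted p = 0.851). As for Atp2b3, its count was not whole in any of the 8 rats, and no single partner record was found.

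Slc8a1 held most of the exchanger level. Its share of the summed TPM of the 3 exchangers was 61.9% ± 5.41 in Wistar and 65.0% ± 2.90 in SHR, that of Slc8a3 was 35.0% ± 5.28 and 31.7% ± 2.33, and that of Slc8a2 was 3.13% ± 1.46 and 3.29% ± 2.55 (mean and SD of 4 rats). The summed level was 6.59 ± 0.06 TPM in Wistar and 6.74 ± 1.44 TPM in SHR. The Wistar rats lay between 6.55 and 6.68 TPM, within the SHR range of 5.11 to 8.04 TPM.

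The IP3 receptors were the least abundant of the families, with a summed level of 2.35 ± 0.20 TPM in Wistar and 2.10 ± 0.60 TPM in SHR (mean and SD of 4 rats). Itpr3, known from epithelia and secretory cells, had 1.07, 1.42, 1.11 and 1.28 TPM in Wistar and 1.13, 0.576, 1.40 and 1.10 TPM in SHR. SHR replicate 2 was the lowest of all rats, and the other SHR lay inside the Wistar range. The log2 fold change was -0.22 (SE 0.22, 95% interval -0.72 to 0.27; edgeR, adjusted p = 0.647).

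Itpr1, the main IP3 receptor of brain neurons, was measured through 3 records of 9667 to 9784 bases. The member record, NM_001007235, had 30.6, 0.175, 0 and 0 estimated counts in Wistar and 0.135, 0, 49.6 and 82.6 in SHR, and it did not pass the filter. Summed over the 3 records, Itpr1 had 0.678, 0.654, 0.697 and 0.403 TPM in Wistar and 0.523, 0.347, 0.746 and 0.488 TPM in SHR. The lowest and the highest rat were both SHR, and the strains overlapped. The log2 fold change of the sum was -0.20 (SE 0.24, 95% interval -0.73 to 0.33; edgeR on gene sums, adjusted p = 0.697).

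Itpr2, known from heart muscle, liver and glia, had 0.471, 0.504, 0.625 and 0.469 TPM in Wistar and 0.723, 0.34, 0.485 and 0.546 TPM in SHR. Both extremes were again SHR, with SHR replicate 1 highest and SHR replicate 2 lowest. For Itpr2 the log2 fold change was 0.04 (SE 0.23, 95% interval -0.48 to 0.56; edgeR, adjusted p = 0.953).

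Itpr3 made up about as much of the receptor level as the other genes together. Its share of the summed TPM was 52.1% ± 6.30 in Wistar and 49.5% ± 3.52 in SHR, against 25.8% ± 5.19 and 25.2% ± 3.19 for Itpr1 and 22.1% ± 2.59 and 25.3% ± 5.04 for Itpr2 (mean and SD of 4 rats). SHR replicate 2, which was lowest for Itpr1, Itpr2, Itpr3 and Slc8a2, also had the lowest total count of the 8 rats. The part of depth in these levels was not tested, and the TPM and the fold changes are scaled for depth.

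The records of Slc8a1 and Itpr1 shared reads with other records of the same gene. The summed counts of Slc8a1 (693, 633, 588 and 597 in Wistar and 500, 518, 709 and 845 in SHR) and of Itpr1 (194, 155, 187 and 109 in Wistar and 139, 75, 185 and 138 in SHR) were whole numbers in all 8 rats, within a tolerance of 0.01, while the counts of most of their single records were not. Whole sums arise where the reads are divided only among the records of the gene. For Slc8a1 the record with the most counts was NM_001270777 in Wistar replicates 1 and 2 and SHR replicates 3 and 4, and it was NM_001270776 in the other rats. For Itpr1 it was NM_001270597 in 6 rats, NM_001270596 in SHR replicate 2 and NM_001007235 in SHR replicate 4. No record of Slc8a1 or Itpr1 that passed the filter was called (6 of 9 and 2 of 3 passed).

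**Figure D4:**
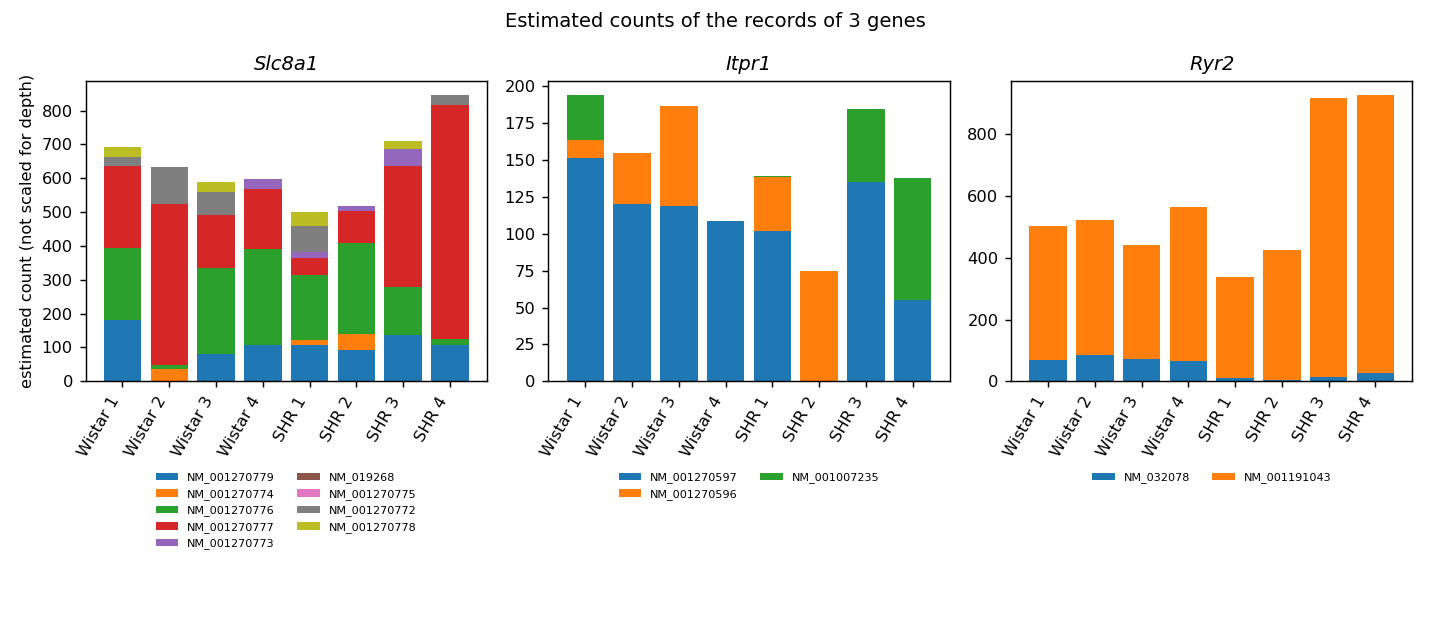
Estimated counts of the RefSeq records of Slc8a1, Itpr1 and Ryr2 in each rat, stacked so that the bar height is the gene sum, not scaled for depth. The records change places from rat to rat in Slc8a1 and Itpr1, while the Ryr2 record NM_032078 is smaller in each SHR than in every Wistar rat.

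Within the SHR, the 3 plasma membrane pumps, Slc8a1 and Slc8a3 varied in a like way from rat to rat. SHR replicate 1 was the lowest of all 8 rats for 5 genes, namely Atp2b1, Atp2b2, Atp2b3, Slc8a1 and Slc8a3. SHR replicate 3 was the highest of all 8 for Atp2b1, Atp2b2, Atp2b3 and Slc8a3, and SHR replicate 4 was the highest for Slc8a1. On the log2 TPM scale, relative to the mean of the 8 rats, Atp2b3 was at -0.38 in SHR replicate 1 and 0.48 in SHR replicate 3, and Slc8a3 was at -0.54 and 0.29. Atp2a3 and Itpr2 went another way, with 0.86 and 0.51 in SHR replicate 1 and -0.94 and -0.07 in SHR replicate 3. The order with SHR replicate 1 lowest and SHR replicate 3 highest was found in 4 of the 8 members tested. It was found in 8 of the 54 records tested of the other calcium genes described further on (14.8%). Among them were the Atp2a2 record NR_027839, Atp2c1 and Stim2. Of all 13659 records tested, 1057 had this order (7.74%). These patterns were noticed in the values and are described without a test.

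The SD of normalised counts was larger in SHR than in Wistar for 8 of the 8 members tested, but this was so for 64.2% of all tested records too. With both rats numbered 1 left out it was larger in 6 of 8 members and in 62.7% of all records. Over all 8 rats, the SD of the gene sum was larger in SHR for Slc8a1 (58.6 in Wistar and 113.4 in SHR) but smaller for Itpr1 (35.4 and 32.1).

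**Figure D5:**
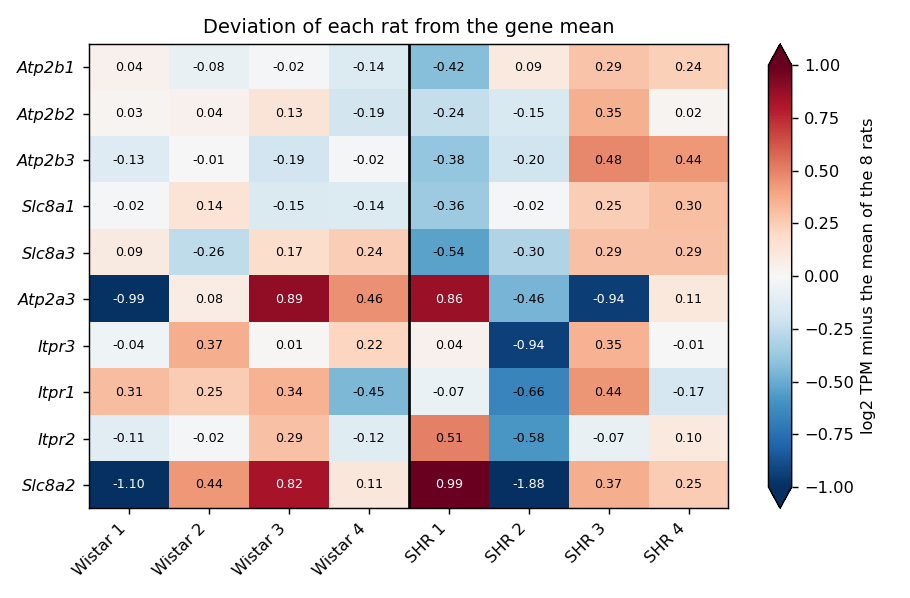
Log2 TPM of each gene in each rat minus the gene's mean over the 8 rats, printed in each cell and coloured from blue (lower) to red (higher), with the colours capped at 1 in either direction and a line between the strains. Atp2b1, Atp2b2, Atp2b3, Slc8a1 and Slc8a3 are lowest in SHR 1, and Slc8a2, Itpr1, Itpr2 and Itpr3 are lowest in SHR 2.

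Markers of other cells differed between the same rats. SHR replicates 3 and 4 had the lowest sums of 7 macrophage markers (25.5 and 33.5 TPM, against 54.3 to 100.7 in the other rats), and 5 of the 7 were each lower in both rats than in every other rat. They also had the lowest sums of 6 vascular smooth muscle markers (20.1 and 28.3 TPM, against 57.1 to 131.2), but this held for 1 of the 6 singly, Tagln, which made up most of the sum. The same was so for 4 erythrocyte markers (433.6 and 2301.7 TPM, against 3173.5 to 9634.4), with 3 of the 4 singly lowest in both rats. It was also so for 7 lymphocyte markers (6.73 and 6.49 TPM, against 7.73 to 11.66), with 2 of the 7 singly. SHR replicate 1 had the highest sums of 6 adipocyte markers (203 TPM, with 6 of 6 highest in that rat), 5 mast cell markers (20.9 TPM, 3 of 5) and 6 fibroblast markers (1574 TPM, 1 of 6, Dcn). Sympathetic neuron markers summed to 40294, 47093, 45842 and 43129 TPM in SHR replicates 1 to 4. The lowest of the 8 rats was thus SHR replicate 1 and the highest SHR replicate 2. In SHR replicate 2, Atp2b3 was just below the lowest Wistar rat (7.72 against 7.78 TPM), as was Slc8a3 (1.78 against 1.83 TPM). Only 1 of the 15 markers, Npy, was highest in SHR replicate 2, and it held 21579 of the 47093 TPM there. Singly, 6 markers were highest in Wistar replicate 1, 3 each in Wistar replicate 4 and SHR replicate 3, and 2 in SHR replicate 4. The part of cell make-up in the levels of these pumps and exchangers was not tested.

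Other genes of calcium handling were taken from fixed lists of pump relatives, ryanodine receptors, enzymes that make or remove IP3, store-operated entry, store and mitochondrial proteins and cytosolic buffers. Of 62 genes 55 had a record, and 54 of their 59 records were tested. In SHR 0 were higher and 2 were lower past the threshold of edgeR's test, which is 3.70% of the 54, against 1.16% higher and 1.69% lower among all tested records. Normalised counts did not overlap between the strains for 6 of the 54 records (11.1%), against 10.6% of all. The median log2 fold change of the 54 records was -0.01.

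One of the 2 was Calb1, calbindin, a cytosolic protein that binds calcium in neurons. It had 6.80, 6.52, 12.8 and 19.9 TPM in Wistar and 3.66, 1.70, 2.45 and 1.97 TPM in SHR, so every SHR was below every Wistar rat. In SHR relative to Wistar its log2 fold change was -2.21 (SE 0.39, 95% interval -3.07 to -1.35; edgeR, adjusted p = 0.0136). The call was lost without SHR replicate 2 (edgeR, adjusted p = 0.0557) and without SHR replicate 4 (edgeR, adjusted p = 0.065).

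The other was a record of Ryr2, the ryanodine receptor known from heart muscle, a calcium release channel of the internal store like the IP3 receptors. The record NM_032078 (14862 bases) had 0.153, 0.222, 0.171 and 0.149 TPM in Wistar and 0.0223, 0.0166, 0.0321 and 0.0598 TPM in SHR, which is 64.6 to 84.0 estimated counts in Wistar and 5.70 to 26.7 in SHR. The log2 fold change was -2.36 (SE 0.40, 95% interval -3.25 to -1.47; edgeR, adjusted p = 0.0113). The longer record NM_001191043 (16357 bases) had 0.873, 1.07, 0.796 and 1.06 TPM in Wistar and 0.714, 1.13, 2.11 and 1.85 TPM in SHR, with a log2 fold change of 0.60 (SE 0.27; edgeR, adjusted p = 0.299).

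For Ryr2 as a gene the strains overlapped. The sum of both records had a log2 fold change of 0.41 (SE 0.26; edgeR on gene sums, adjusted p = 0.441), and NM_032078 held 14.5% of the summed counts on average in Wistar and 2.10% in SHR. Neither record had a whole count in any of the 8 rats, so part of the reads was divided by estimation. Their sum was not whole in any of the 8 rats either, so some reads were shared with records other than these 2. The shares and the fold change of the sum carry this limit. On the scale of log2(TPM + 0.1) the log2 fold change of NM_032078 was -1.05, and the call turned on the filter (limma, adjusted p = 0.103 over the records that passed it and 0.0468 without a filter).

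Among the pump relatives, Atp2b4, the remaining plasma membrane pump, had 19.5 to 25.6 TPM in Wistar and 20.3 to 37.5 TPM in SHR, with a log2 fold change of 0.35 (SE 0.15; edgeR, adjusted p = 0.26). In each of the 8 rats it was above Atp2b1, Atp2b2 and Atp2b3 taken singly. Atp2a2, the SERCA pump of most tissues, summed over its records to 17.5 to 20.3 TPM in Wistar and 13.4 to 24.4 TPM in SHR. The log2 fold change of the sum was 0.10 (SE 0.15, edgeR on gene sums, adjusted p = 0.774). The sum was above Atp2a3 in each of the 8 rats. Most of it was the record NR_027839 (12.5 to 23.5 TPM), whose prefix RefSeq gives to non-coding transcripts. Of the coding records, NM_001110139 had 0.524 to 0.92 TPM and NM_001110823 was at 0 in every rat. NM_001110139 was above Atp2a3 in Wistar replicate 1 and SHR replicate 3 only.

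Nptn, neuroplastin, a subunit that plasma membrane pumps need, had 132.6 to 154.4 TPM in Wistar and 108.4 to 118.2 TPM in SHR. The strains did not overlap, with a log2 fold change of -0.32 (SE 0.09), but the test was not passed (edgeR, adjusted p = 0.0929). Pln, phospholamban, an inhibitor of SERCA pumps, had a log2 fold change of -0.65 (SE 0.39; edgeR, adjusted p = 0.43). For Atp2c1, the calcium pump of the Golgi, it was 0.32 (SE 0.15; edgeR, adjusted p = 0.322).

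Of the enzymes around IP3, Plcg1, a phospholipase C, had 5.76 to 6.38 TPM in Wistar and 6.68 to 10.2 TPM in SHR (log2 fold change 0.43, SE 0.12; edgeR, adjusted p = 0.0994). Itpka, a kinase that removes IP3 by phosphorylating it, had 0.248 to 0.48 TPM in Wistar and 0.649 to 1.005 TPM in SHR (log2 fold change 1.17, SE 0.37; edgeR, adjusted p = 0.144). Neither overlapped between the strains and neither passed the test. In the remaining lists the smallest p belonged to Slc24a1, a potassium-dependent exchanger (adjusted p = 0.425), Saraf, a regulator of store-operated entry (0.292), Hspa5, a chaperone of the endoplasmic reticulum (0.316), and Vdac3, a channel of the outer mitochondrial membrane (0.449), all by edgeR.

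For Atp2b3 and Itpr3, the 2 members with the smallest p, the records with the most similar profile over the 8 rats were sought. The measure was the root mean square difference between log2 CPM values centred on each record's mean. The closest to Atp2b3 were Gls2, a glutaminase (0.0504), Vps13a, a lipid transfer protein (0.0602), and Rabl6, a GTPase-like protein (0.0697), where the median over all tested records was 0.363. The closest to Itpr3 were Nck2, an adaptor protein (0.127), Pom121 of the nuclear pore (0.132) and Akap8l (0.134), with a median of 0.433. With 8 rats and 13659 records to choose from, such likeness describes these libraries only.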

How the data were processed

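Right stellate ganglia of 4 Wistar rats and 4 SHR were analysed, with strain and replicate number taken from the labels. The authors quantified read pairs against rat RefSeq transcripts (rn6) with Salmon 0.8.2, correcting for GC and positional bias. For every record of each rat the authors deposited a TPM and an estimated count, which can hold fractions of a read. The deposited files also give record lengths. The labels name a TruSeq Stranded library kit and the methods name SMARTer amplification, so the kit is uncertain, and no batch is named.

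Estimated counts were rounded to whole numbers and tested with edgeR 4.0.16 (TMM, filterByExpr, glmQLFit with defaults, glmQLFTest) in R 4.3.3. A call is a p under 0.05 after Benjamini-Hochberg adjustment over 13659 records. SEs were derived from the F statistic (size of the log2 fold change over the root of F), and intervals cover 95%. Normalised counts are TMM-scaled. Alternatives used DESeq2 1.42.0, and limma 3.58.1 on log2(TPM + 0.1) or log2(TPM + 1). The fits were tested on simulated counts.

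A RefSeq table (assembly GRCr8) paired 17360 of the 18314 records with 16420 genes, and gene sums add all records of a gene. The members and lists were chosen with earlier results of these data known. All members were named, with every other calcium gene past the threshold, the one with the smallest p in each list where none passed, and the 3 closest profiles (log2 CPM, prior count 2) for the 2 members with the smallest p. Atp2b4 and Atp2a2 were named beyond this rule, as the nearest relatives of the pumps, after their values were seen. Within a strain no pair of libraries agreed within counting noise (chi-square per degree of freedom from 22.4 to 110.8). Depth sets the counting error of each value, and the estimates also carry Salmon's uncertainty, for which the files give no error.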

Additional observations from a re-analysis of the deposited data

Results flagged for a closer look

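In 74 groups of 4 rats (levels and family shares of the members, family sums and marker sums in each strain), the lowest or highest rat was tested for standing apart by Dixon's ratio of its gap to the range, at the 95% critical value. There were 5 such values, in 3 rats, where chance gives about 3.7 values.

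Wistar replicate 4 was low for Itpr1, with 0.403 TPM summed over the records. The same rat was low for the summed level of the 3 plasma membrane pumps, with 34.29 TPM. In SHR replicate 2, Slc8a1 held 69.35% of the summed TPM of the exchangers, the highest share among the SHR. SHR replicate 1 was high for mast cell markers, with a summed level of 20.94 TPM, and for adipocyte markers, with 203 TPM.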

How the results depend on the processing

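Members called between the strains stayed at 0 under all 20 alternatives. Across them, 170 of 193 log2 fold changes of members kept their direction and 23 turned, in Atp2a3, Atp2b2, Slc8a2, Slc8a3 and Itpr2.

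Leaving out each rat in turn gave log2 fold changes from -0.616 to 0.1165 for Atp2a3, -0.06164 to 0.06873 for Atp2b2, -0.3987 to 0.323 for Slc8a2, -0.2166 to 0.03099 for Slc8a3 and -0.1815 to 0.1798 for Itpr2. Atp2b2 was -0.0005647 without a low-count filter, -0.007443 in limma on log2(TPM + 0.1) with and without a filter, and -0.006263 on log2(TPM + 1). On log2(TPM + 0.1), with and without a filter, Slc8a2 was -0.03239 and Itpr2 -0.01389, and in DESeq2 Slc8a2 was -0.002156. Of those that kept their sign, Itpr3 ran from -0.3319 to -0.0353 (without SHR replicate 2), Slc8a1 from 0.004881 (without SHR replicate 4) to 0.2183, Itpr1 from -0.3681 to -0.07849 (without SHR replicate 2), Atp2b3 from 0.0976 (without SHR replicate 4) to 0.3404 and Atp2b1 from 0.07061 (without SHR replicate 4) to 0.2555. With both rats numbered 1 left out, Atp2a3 was -0.8655, Slc8a2 was -0.6552, Slc8a3 0.0544 and Itpr2 -0.2053. The cause was not tested.

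Among all records 782 were called by DESeq2, 851 with its length offset, 1068 with both rats numbered 1 left out, and 237 to 454 when each rat was left out. Without Wistar replicate 2, 3 or 4 or SHR replicate 4 there were 237, 243, 238 and 248. Of the other calcium records, 4 were called by DESeq2 with a length offset (Plcg1, Nptn, Calb1 and Ryr2 NM_032078) and 6 with both rats numbered 1 left out (Fkbp1b, Calb1, both Ryr2 records, Bsg and Atp2c1). There was 1 with at least 10 counts in every rat, 1 in limma at either pseudocount (0.1 or 1) over the filtered records but 2 on log2(TPM + 0.1) without a filter, 1 on gene sums, and 1 to 4 when each rat was left out (4 without SHR replicate 1, 1 without SHR replicate 2 or 4, and 2 without any other rat). The cause was not tested.

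With the replicate number as a replicate block, 132 records were called, 0 of them calcium records. In that fit the log2 fold change of Slc8a2 was -0.1025 and of Itpr2 -0.007034, Calb1 had an adjusted p of 0.0738 and Ryr2 NM_032078 of 0.083. The labels do not say that the numbers pair the rats, and deviations of rats with the same number had correlations of -0.29, -0.12, -0.16 and -0.04.

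Slc8a2 rests on 3 to 28 counts per rat.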
